A study of Homo sapiens with 6 samples.

Results

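Described here are 27 genes of cholesterol synthesis, uptake, storage and export, out of 58735 genes in a deposited RNA-seq table of C4-2B MDVR cells. The members were set by name: enzymes of the mevalonate route and of sterol synthesis, regulators and carriers of cholesterol uptake, an esterifying enzyme, and exporters of the plasma membrane. C4-2B MDVR is a human prostate cancer line, a derivative of C4-2B that grows in the presence of enzalutamide, an antiandrogen. All cells were collected after 2 days. The 6 groups, each of 1 library, were PTUPB at 10 uM plus enzalutamide, PTUPB at 20 uM plus enzalutamide, enzalutamide at 20 uM, PTUPB at 10 uM, PTUPB at 20 uM, and the control, which received DMSO. PTUPB is a compound built to inhibit both cyclooxygenase-2 and soluble epoxide hydrolase. The labels state no enzalutamide dose for the PTUPB combinations, and an equal dose was assumed wherever the fits use enzalutamide as a term. All libraries come from this 1 resistant line, so nothing here separates the resistant line from its parent.

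Cells make cholesterol from acetyl-CoA. Early enzymes build mevalonate and isoprenoid units, later ones join these to squalene and close the ring to lanosterol, and the last ones trim lanosterol to cholesterol. When membrane sterol runs low, SREBP transcription factors are cut free and raise most of these genes together with uptake of lipoproteins, and when sterol is plentiful, LXR receptors raise the exporters. Prostate cells also use cholesterol as the parent of steroid hormones and as a store of esters.

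Of the 27 members, 25 had a mean of 1 FPKM or more over the 6 libraries and were tested. FPKM are fragments per kilobase of exon, scaled by a size for each library. The exporter ABCA1 and the sterol carrier STARD4 lay below that level. The recovered depth was 20156523 to 25627945 fragments in the libraries with PTUPB plus enzalutamide, 29450436 with enzalutamide, 28848961 and 22368705 with 10 and 20 uM PTUPB, and 27337933 in the control. In bulk RNA, fewer cells of a type and less RNA per cell cannot be told apart. The library size implied by the deposited FPKM was 1.09 times the recovered fragments in the control and 0.91 times at 20 uM PTUPB plus enzalutamide. The other libraries lay between these. Both 20 uM libraries were the shallowest, and the part of depth and of this scaling in the results below was not tested. Of 12 markers of luminal prostate cells, 10 were at 1 FPKM or more in every library, and the summed level of the 12 was 347 FPKM at 20 uM PTUPB plus enzalutamide and 351 at 20 uM PTUPB, against 1100 with 10 uM PTUPB plus enzalutamide, 1250 with enzalutamide, 1250 with 10 uM PTUPB and 1290 FPKM in the control. The 3 basal, 3 blood and 3 endothelial markers stayed below 1 FPKM everywhere, and of 4 stromal markers COL1A1 alone passed it, at up to 6.47 FPKM. The 12 did not move as one. FOLH1 was at 40.8 and 50.3 FPKM at 20 uM with and without enzalutamide, against 252 to 481 FPKM in the other 4 libraries. The keratin genes KRT8 and KRT18 were at 82.1 and 107 FPKM at 20 uM plus enzalutamide, against 42.5 and 50.7 FPKM with enzalutamide alone, and EPCAM was at 93.2 FPKM at 20 uM without enzalutamide, against 80.6 in the control. The part of these differences in the results below was not tested.

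Sequence before the start of 5 members is shown to let the compared genes be seen side by side. LSS and LBR were lower at 20 uM PTUPB, HMGCS1 and GGPS1 were higher at 20 than at 10 uM, and MSMO1 holds the letters of a sterol element. These 5 were chosen after values were seen. Each is the longest stretch, within 250 bases before the RefSeq transcript start (GRCh38.p14), that lies outside every exon of GENCODE 29. Capitals mark the sterol regulatory element letters TCACNCCA and the NF-Y box CCAAT, on either strand. The stretches are LSS at chr21:46228825-46229024 on the minus strand, LBR at chr1:225428926-225429071 on the minus strand, HMGCS1 at chr5:43313513-43313662 on the minus strand, GGPS1 at chr1:235326969-235327159 on the plus strand and MSMO1 at chr4:165327419-165327622 on the plus strand.
LSS: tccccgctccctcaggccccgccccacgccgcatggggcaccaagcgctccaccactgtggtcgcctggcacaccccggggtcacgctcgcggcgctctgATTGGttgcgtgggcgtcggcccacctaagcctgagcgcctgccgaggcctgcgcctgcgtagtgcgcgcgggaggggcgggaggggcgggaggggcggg
LBR: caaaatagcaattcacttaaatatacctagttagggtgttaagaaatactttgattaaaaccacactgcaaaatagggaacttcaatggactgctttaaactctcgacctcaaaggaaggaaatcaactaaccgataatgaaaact
HMGCS1: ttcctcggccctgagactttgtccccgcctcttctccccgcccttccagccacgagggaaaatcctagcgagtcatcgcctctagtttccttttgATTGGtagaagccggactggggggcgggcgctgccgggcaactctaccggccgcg
GGPS1: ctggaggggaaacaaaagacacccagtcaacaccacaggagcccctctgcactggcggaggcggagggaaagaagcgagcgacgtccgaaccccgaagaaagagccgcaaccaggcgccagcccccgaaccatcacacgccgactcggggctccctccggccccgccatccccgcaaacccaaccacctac
MSMO1: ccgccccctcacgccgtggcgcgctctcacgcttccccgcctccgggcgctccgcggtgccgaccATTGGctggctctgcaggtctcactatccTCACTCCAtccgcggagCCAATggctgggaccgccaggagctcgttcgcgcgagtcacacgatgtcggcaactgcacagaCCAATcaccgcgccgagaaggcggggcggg

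The NF-Y box occurred in the 250-base window of 16 of 23 members with a RefSeq promoter (69.6%), against 36.0% of 9256 promoters of tested genes and 33.0% of all 27305 promoters. TCACNCCA occurred in MVK and MSMO1, which is 8.7% of members, against 2.66% and 3.18%. The GC box GGGCGG was in 87.0% of member windows, against 69.5% and 42.3%. The E-box CACGTG was in SC5D and ABCA1 (8.7%, against 9.32% and 6.49%), and TGATGNAA, the letters of a C/EBP-ATF element, was in 0 of 23 (1.34% and 3.19%). None of the 5 members that fell at 20 uM PTUPB held TCACNCCA in this window. LBR had neither marked motif, while LSS, TM7SF2, EBP and SOAT1 each held the NF-Y box. These are matches of letters and are not evidence of binding.

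**Figure D1:**
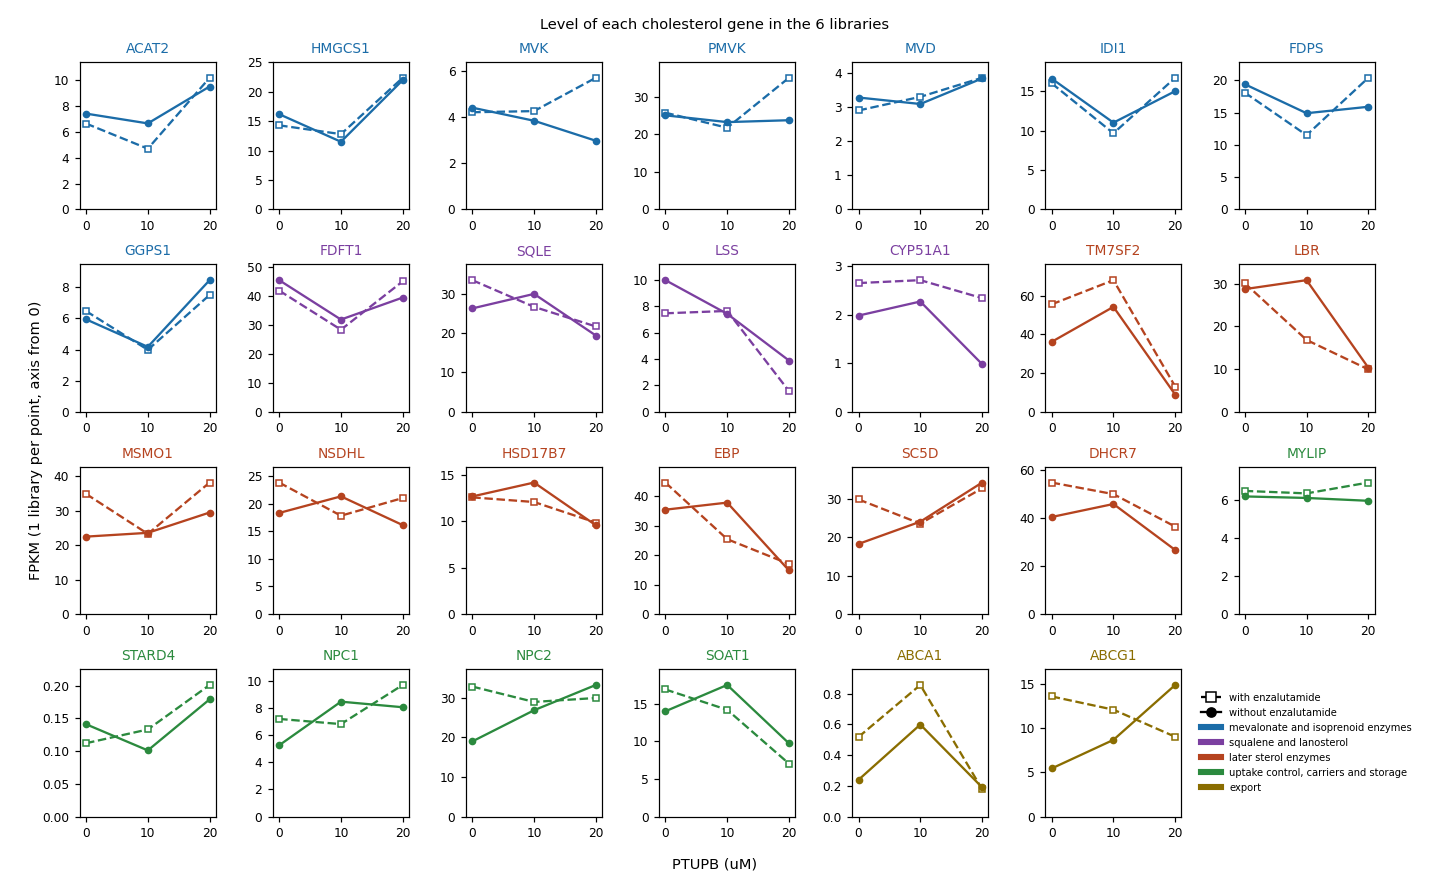
FPKM of the 27 members against PTUPB dose in uM, 1 library per point, open squares and dashed lines with enzalutamide, filled circles and solid lines without it, colours for roles, each axis starting at 0. TM7SF2, LBR, EBP and LSS lie lowest at 20 uM in both series, HMGCS1, IDI1, FDPS, GGPS1 and FDFT1 dip at 10 uM, and the 2 ABCG1 lines cross.

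In the fit over all 6 libraries, 20 uM PTUPB went with a fall in 5 of the 25 tested members and a rise in 0. The 5 that fell were TM7SF2, LBR, LSS, EBP and SOAT1, by 1.97, 1.46, 1.45, 1.27 and 0.82 on the log2 scale of FPKM plus 1. Of all 12960 genes tested, 18.2% fell and 15.9% rose, so the members' share of falls (20.0%) stood near that background and their share of rises (0%) below it. The median member effect was -0.04, against 0.00 over all genes. The fit holds PTUPB as 3 levels plus enzalutamide. Its p-values therefore weigh each effect against departure from additive effects in single libraries, and not against the spread between replicate cultures. Without the enzalutamide library 0 members fell, where 1.61% of all genes did, and without the control 1 fell (TM7SF2), where 4.75% of all genes did. Without any other single library 4 members fell, with 13.9% to 21.0% of all genes. Those fits have 1 residual degree of freedom where the full fit has 2.

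Of the 5 members that fell, 4 encode enzymes that close or alter the sterol ring. TM7SF2 encodes a sterol C14 reductase. It stood at 55.5, 68.0 and 13 FPKM with enzalutamide at 0, 10 and 20 uM PTUPB, and at 36.1, 54.2 and 8.83 FPKM without it. Both 20 uM libraries lay far below the other 4, while both 10 uM libraries lay above their partners without PTUPB. The 20 uM level was 4.27-fold lower with enzalutamide (95% counting interval 3.97 to 4.60) and 4.09-fold lower without it (3.78 to 4.44). These intervals cover counting error alone. The fitted effect was -1.97 (SE 0.18, adjusted p 0.0031), and without the enzalutamide library the adjusted p was 0.053. TM7SF2 (ENSG00000149809) lies on GRCh38 chromosome 11 at 65111845 to 65116384.

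LBR, the lamin B receptor of the inner nuclear membrane, carries the same reductase activity as TM7SF2. Its levels were 30.1, 16.8 and 9.91 FPKM with enzalutamide at 0, 10 and 20 uM PTUPB, and 28.7, 30.8 and 10.3 FPKM without it. In FPKM the 2 series meet at both ends and part at 10 uM, where the library with enzalutamide was 1.83-fold lower. On the TPM scale, where each library is rescaled to the same total, LBR was lower with enzalutamide at every dose. It was at 84.6, 49.7 and 29.8 TPM with enzalutamide at 0, 10 and 20 uM PTUPB, and at 109, 94.0 and 38.5 TPM without it. At 20 uM LBR was 3.03-fold lower with enzalutamide (counting interval 2.83 to 3.26) and 2.80-fold lower without it (2.63 to 2.98), and the fitted effect was -1.46 (SE 0.26, adjusted p 0.013). The gene (ENSG00000143815) lies on chromosome 1 at 225401502 to 225428925.

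EBP is the isomerase that shifts a double bond in the sterol ring. It measured 44.6, 25.4 and 17.0 FPKM with enzalutamide at 0, 10 and 20 uM PTUPB, and 35.4, 37.8 and 14.8 FPKM without it. As with LBR, the 10 uM library was lower with enzalutamide, by 1.49-fold, and both 20 uM libraries were below all others. The fitted effect was -1.27 (SE 0.26, adjusted p 0.018), from levels 2.63-fold lower with enzalutamide and 2.39-fold lower without it. EBP (ENSG00000147155) lies on the X chromosome at 48521158 to 48528716.

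LSS, lanosterol synthase, closes the ring of squalene epoxide. Its levels were 7.48, 7.66 and 1.57 FPKM with enzalutamide at 0, 10 and 20 uM PTUPB, and 10.0, 7.44 and 3.89 FPKM without it. The lowest of the 6 was 20 uM PTUPB plus enzalutamide, 2.49-fold below 20 uM PTUPB (counting interval 2.12 to 2.92). LSS was 4.77-fold lower at 20 uM with enzalutamide and 2.57-fold lower without it, and the fitted effect was -1.45 (SE 0.26, adjusted p 0.012). LSS (ENSG00000160285) lies on chromosome 21 at 46188141 to 46228824, and 7.88% of its exon bases overlap genes of the opposite strand.

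The other later sterol enzymes did not move as 1 block. DHCR7, the last reductase of one branch of the pathway, stood at 54.6, 49.8 and 36.3 FPKM with enzalutamide at 0, 10 and 20 uM PTUPB, and at 40.3, 45.7 and 26.6 FPKM without it. Its fitted 20 uM effect of -0.58 missed the threshold (SE 0.19, adjusted p 0.064), but passed by limma-voom on fragments (adjusted p 0.041). HSD17B7, a ketoreductase, was at 9.88 and 9.59 FPKM in the 20 uM libraries with and without enzalutamide, against 12.1 to 14.2 in the other 4.

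SC5D, the sterol C5 desaturase, lay on the opposite side of the other 4 libraries. It was at 29.9, 23.6 and 32.8 FPKM with enzalutamide at 0, 10 and 20 uM PTUPB, and at 18.3, 24.1 and 34.3 FPKM without it. The control was the lowest of the 6 libraries. MSMO1, which starts removal of the C4 methyl groups, was highest at 20 uM PTUPB plus enzalutamide, at 38.2 FPKM, against 22.5 FPKM in the control. Its lowest library was the control in FPKM, but 10 uM PTUPB plus enzalutamide on the TPM scale, at 69.0 TPM against 85.3 TPM in the control. NSDHL, which acts after it, ranged from 16.1 to 23.8 FPKM. Of the 8 later sterol enzymes, 3 fell at 20 uM, 0 rose and 5 did not pass, beside 18.2% of all genes that fell and 15.9% that rose, with a median effect of -0.46 on the log2 scale.

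**Figure D2:**
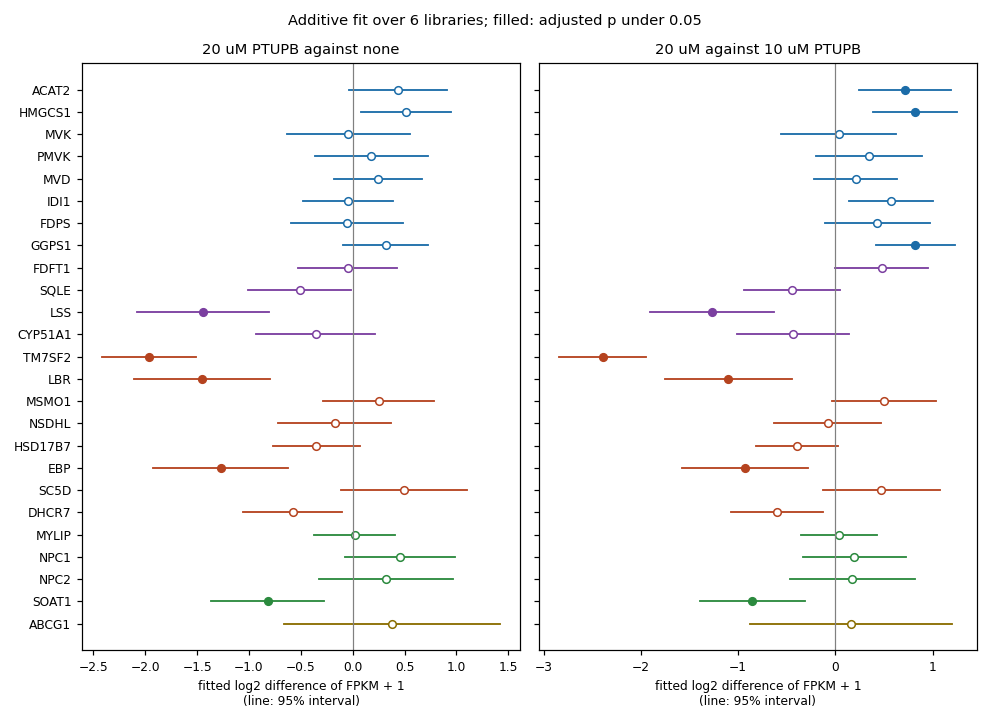
Fitted log2 differences of FPKM plus 1 with 95% intervals for the 25 tested members, in pathway order, for 20 uM PTUPB against none (left) and against 10 uM (right), filled where the adjusted p is under 0.05. The 5 filled points left of 0 are the same genes in both panels, TM7SF2 farthest at -1.97 and -2.39, and 3 mevalonate enzymes are filled right of 0 in the right panel.

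Between squalene formation and lanosterol demethylation, LSS was the only 1 of 4 members to pass. FDFT1, squalene synthase, ranged from 28.3 to 45.4 FPKM. SQLE, squalene epoxidase, was at 21.7 and 19.4 FPKM in the 20 uM libraries with and without enzalutamide, against 26.3 to 33.5 in the other 4. CYP51A1, the lanosterol demethylase, measured 2.65, 2.71 and 2.34 FPKM with enzalutamide at 0, 10 and 20 uM PTUPB, and 1.98, 2.27 and 0.98 FPKM without it. The 1 low library was thus 20 uM PTUPB without enzalutamide, but 83.2% of the exon bases of CYP51A1 are shared with other annotated genes, which makes its level uncertain.

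None of the 8 mevalonate and isoprenoid enzymes passed for 20 uM against no PTUPB, where their median effect was 0.21. By limma 1 of the 8 was at an unadjusted p under 0.05, beside 6020 of all 12960 genes, and 0 passed by limma-voom. Of the 8, 5 were lowest at both 10 uM points, while ACAT2, MVK and MVD were not. HMGCS1, the synthase that makes HMG-CoA, had 14.3, 12.8 and 22.4 FPKM with enzalutamide at 0, 10 and 20 uM PTUPB, and 16.2, 11.5 and 22.0 FPKM without it. Both 10 uM libraries were the lowest of the 6 and both 20 uM libraries the highest. GGPS1, which makes the geranylgeranyl donor for protein prenylation, had 6.47, 3.98 and 7.51 FPKM with enzalutamide and 5.94, 4.17 and 8.46 FPKM without it, again with both 10 uM libraries lowest and both 20 uM libraries highest. ACAT2, an acetoacetyl-CoA thiolase, had 6.65, 4.70 and 10.2 FPKM with enzalutamide and 7.42, 6.66 and 9.52 FPKM without it.

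Against 10 uM, 20 uM PTUPB went with a rise in 3 members and a fall in 5. GGPS1 rose by 0.82 (SE 0.16, adjusted p 0.017), HMGCS1 by 0.82 (SE 0.18, adjusted p 0.021) and ACAT2 by 0.72 (SE 0.19, adjusted p 0.036) on the log2 scale. The falls were in TM7SF2 (-2.39, adjusted p 0.0027), LSS (-1.27, adjusted p 0.018), LBR (-1.10, adjusted p 0.027), EBP (-0.93, adjusted p 0.043) and SOAT1 (-0.85, adjusted p 0.033). EBP no longer passed here without the variance trend or without the filter on low values. Its effect ran from -1.33 to -0.52 over the 11 alternative fits. Over all genes 16.5% rose and 16.9% fell in this comparison, against 12.0% and 20.0% of the members. All 8 mevalonate and isoprenoid enzymes had effects above 0, with a median of 0.50. On the TPM scale the all-gene median was 0.17 in place of 0.02, and 6 members rose and 5 fell, beside 21.3% and 14.7% of all genes. Without control, enzalutamide, 10 uM PTUPB or 10 uM PTUPB plus enzalutamide, 0 members rose and 2 fell, where 2.71% to 9.33% of all genes rose and 3.76% to 10.6% fell. Without 20 uM PTUPB 7 rose and 3 fell (22.5% and 20.7% of all genes), and without 20 uM PTUPB plus enzalutamide 2 rose and 3 fell (14.9% and 16.0%). TM7SF2 fell in each of these 6 fits.

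Reads shared with overlapping genes limit these early enzymes, since no source used here says whether counting used strand. GGPS1 also overlaps a gene of its own strand, whose reads a strand setting would not separate. Exon bases shared with other genes were 52.3% for ACAT2, 41.0% for GGPS1, 18.6% for FDPS, 15.0% for HMGCS1 and 14.8% for IDI1. IDI1, FDPS, CYP51A1 and HSD17B7 have named pseudogenes (4 members in all) and may share reads with them. TM7SF2, LBR, EBP and SOAT1 had 0.469% or less.

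Both 10 uM libraries were below all 4 others in 6 of the 25 members (24.0%), where 11.7% of all tested genes were. These were HMGCS1, GGPS1, FDFT1, the phosphomevalonate kinase gene PMVK, the isomerase gene IDI1 and the farnesyl diphosphate synthase gene FDPS. IDI1 had 16.0, 9.65 and 16.7 FPKM with enzalutamide at 0, 10 and 20 uM PTUPB, and 16.6, 11 and 15.0 FPKM without it. FDPS had 18.1, 11.5 and 20.4 FPKM with enzalutamide and 19.4, 14.9 and 15.9 FPKM without it, so its low point was shallower without enzalutamide. PMVK ranged from 21.7 to 35.0 FPKM, with its highest level at 20 uM PTUPB plus enzalutamide.

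No member passed for 10 uM PTUPB in the fit (0 of 25, background 0% of 12960 genes), and 0 passed by limma-voom. By limma 3 members (IDI1, GGPS1 and FDFT1) were at an unadjusted p under 0.05, beside 480 of the 12960 genes. No tested member was above the other 4 libraries at both 10 uM points (0 of 25, background 7.11%). At 20 uM both libraries were below the other 4 in 8 of 25 members (32.0%, background 29.5%), the 5 that fell with SQLE, HSD17B7 and DHCR7. They were above in 5 (20.0%, background 30.3%), which were ACAT2, HMGCS1, GGPS1, SC5D and MVD, the decarboxylase of the mevalonate route, at 3.86 and 3.84 FPKM with and without enzalutamide. On the TPM scale, an alternative chosen after seeing the data, HSD17B7 and MVD left these groups and MSMO1 and NPC1 joined those above. At 20 uM 7 of 25 members were then below (28.0%, background 23.5%) and 6 above (24.0%, background 29.7%). Both 10 uM libraries were then below the other 4 in 7 members (28.0%, background 12.3%), with MSMO1 added. TM7SF2 was above the other 4 libraries at both 10 uM points (background 3.43%). MVK, mevalonate kinase, parted with enzalutamide at 20 uM, at 5.72 FPKM with it and 2.98 FPKM without it, a 1.92-fold difference (counting interval 1.70 to 2.17).

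Genes of uptake, lysosomal transfer and storage were mixed. SOAT1, which esterifies cholesterol for storage, was the only 1 of 4 tested members here to pass. It stood at 16.9, 14.2 and 7.03 FPKM with enzalutamide at 0, 10 and 20 uM PTUPB, and at 14.0, 17.5 and 9.73 FPKM without it. The 20 uM level was 2.40-fold lower with enzalutamide and 1.44-fold lower without it, and the fitted effect was -0.82 (SE 0.22, adjusted p 0.037). SOAT1 (ENSG00000057252) lies on chromosome 1 at 179293714 to 179358680. It no longer passed when the control, enzalutamide, either 10 uM library or 20 uM PTUPB plus enzalutamide was left out.

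NPC2 and NPC1, the soluble and the membrane carrier that move cholesterol out of lysosomes, were both lowest in the control. NPC2 had 32.9, 29 and 30.0 FPKM with enzalutamide at 0, 10 and 20 uM PTUPB, and 19.0, 26.9 and 33.3 FPKM without it. NPC1 had 7.18, 6.80 and 9.68 FPKM with enzalutamide and 5.24, 8.45 and 8.04 FPKM without it. Neither passed at 20 uM. MYLIP, a ubiquitin ligase that marks lipoprotein receptors for degradation, was the flattest member, at 5.96 to 6.92 FPKM. STARD4, a cytosolic sterol carrier, held 17 to 24 fragments per library, and differences between libraries were not detectable at this depth.

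Of the exporters, ABCG1 had levels that ran in opposite directions over the doses with and without enzalutamide. ABCG1 passes cholesterol to lipoprotein particles. It stood at 13.6, 12.1 and 9.03 FPKM with enzalutamide at 0, 10 and 20 uM PTUPB, and at 5.44, 8.68 and 14.9 FPKM without it. Without PTUPB the library with enzalutamide was the higher one, and at 20 uM it was the lower one. At 20 uM ABCG1 was 1.5-fold lower with enzalutamide (counting interval 1.39 to 1.62) and 2.73-fold higher without it (2.53 to 2.95). The interaction of enzalutamide with PTUPB dose was -0.92 per 10 uM but did not pass (adjusted p 0.45), and it passed after rescaling to TPM (adjusted p 0.021). Over all members 0 of 25 passed the interaction test (background 0%). By limma 1, ABCG1, was at an unadjusted p under 0.05, beside 1219 of all 12960 genes.

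ABCA1, which loads cholesterol onto apolipoproteins, was scarce, with 37 to 257 fragments per library. It had 0.518, 0.857 and 0.178 FPKM with enzalutamide at 0, 10 and 20 uM PTUPB, and 0.239, 0.599 and 0.19 FPKM without it. Both 10 uM libraries were the highest and both 20 uM libraries the lowest. With enzalutamide the 20 uM level was 2.91-fold lower (counting interval 2.03 to 4.28), and without it the interval of 0.55 to 1.14 for the ratio included no difference.

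**Figure D3:**
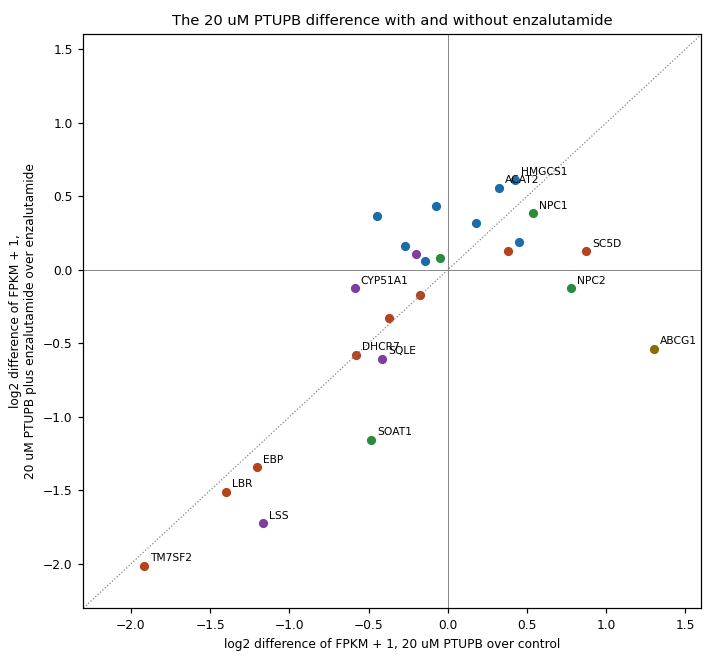
Log2 difference of FPKM plus 1 for 20 uM PTUPB plus enzalutamide over enzalutamide (vertical) against 20 uM PTUPB over control (horizontal), 1 point per tested member, coloured by role as in the plot of levels, dotted line for equal differences. TM7SF2, LBR and EBP lie near that line, and ABCG1 lies at 1.30 without and -0.54 with enzalutamide.

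Differences between 2 single libraries, which carry no replicate check, were counted from log2 1 upward. For 20 uM PTUPB with enzalutamide 0 members were higher (background 13.5%) and 5 lower (15.8%), and without it 1 was higher (ABCG1, 9.47%) and 4 lower (12.7%). For 10 uM PTUPB 0 members passed this margin in either direction with enzalutamide (2.24% of all genes higher, 1.57% lower) or without it (1.62% and 0.772%). Enzalutamide alone put 1 member, ABCG1, higher by that margin and 0 lower (1.31% and 1.37%). Enzalutamide added to PTUPB put 0 members beyond it at 10 uM (1.41% and 2.01%) and 0 at 20 uM (3.83% and 2.90%). Pairs that use the same library are not independent of each other.

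The later sterol enzymes summed to 286 FPKM with enzalutamide alone, against 212 FPKM in the control, but to 804 against 805 on the TPM scale. In FPKM 16 of 25 members were above the control, with a median log2 difference of 0.11. On the TPM scale 7 of 25 were, with a median of -0.29 beside -0.41 over all genes. In FPKM, TM7SF2 was 1.54-fold, SC5D 1.63-fold, MSMO1 1.55-fold, NPC2 1.73-fold and ABCG1 2.49-fold higher. The 8 mevalonate and isoprenoid enzymes summed to 94.4 FPKM with enzalutamide, against 98.3 FPKM in the control, and to 266 against 372 on the TPM scale. In the fit over the 3 matched pairs 0 of 25 members passed for enzalutamide (background 0%), and 0 passed by limma-voom. By limma 1, TM7SF2, was at an unadjusted p under 0.05, beside 626 of all 12960 genes. On the TPM scale, where the all-gene median for enzalutamide was -0.23 in place of 0.01, the single difference of ABCG1 was under the log2 margin.

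Other genes of the pathway were read from a list of 36, of which 32 were tested, and at 20 uM PTUPB 13 fell, 4 rose and 15 did not pass. The share that fell was 40.6%, beside 18.2% of all genes, and the median effect was -0.44. The list was chosen with earlier results of these data known, so the gap between these shares is not a test of the pathway. The 6 largest effects were all falls. SREBF1, which encodes SREBP-1, the member of that family tied mainly to fatty acid synthesis, fell by 3.33 (adjusted p 0.0023), to 9.48 and 12.6 FPKM with and without enzalutamide at 20 uM, against 98.6 to 124 FPKM in the other 4 libraries. The lipoprotein receptor gene LRP8 fell by 2.48. SCARB1, a receptor for high-density lipoprotein, fell by 1.86. ACLY, which supplies acetyl-CoA, fell by 1.80, TMEM97, which encodes a sterol-binding membrane protein, fell by 1.73, and PDSS1, of ubiquinone synthesis, fell by 1.59. SREBF2, whose product SREBP-2 is the main activator of the enzymes above, fell by 0.97 (adjusted p 0.044), with 27.3 and 41.1 FPKM at 20 uM with and without enzalutamide, against 58.2 to 76.4 FPKM in the others. The 4 that rose were DHDDS of dolichol synthesis (1.00, adjusted p 0.011), OSBP, an oxysterol-binding carrier (0.94, adjusted p 0.019), NR1H2, an LXR receptor (0.74, adjusted p 0.029), and FNTA, a prenyltransferase subunit (0.59, adjusted p 0.041). SREBF1 passed under every alternative run. Without the enzalutamide library none of the other 10 genes named from this list passed (adjusted p 0.053 to 0.33), and SREBF2 passed in only 1 of the 6 fits that leave out a library, the one without 20 uM PTUPB.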

How the data were processed

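The authors deposited 1 table with 1 FPKM value per gene and library for 6 libraries of 1 cell line, sequenced as paired ends per the labels' protocols. The submitters' processing notes name HISAT and Cufflinks without versions. The genome build, annotation and strand setting are not given in the sources used here. Each deposited FPKM times the GENCODE 29 exon length of its gene fell on a whole multiple of one step per library (100% of values within 0.05 fragments), which gave back fragments per gene. All 58735 identifiers matched GENCODE 29, an own match on GRCh38, and 58207 the table of current gene names.

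Values were taken as log2 of FPKM plus 1, and a two-sided limma test (limma 3.58.1, R 4.3.3, trended variance) was run on the 12960 genes whose mean FPKM reached 1, with Benjamini-Hochberg adjustment over all of them at 0.05. The additive fit holds PTUPB as 3 levels plus enzalutamide and has 2 residual degrees of freedom; the interaction fit adds enzalutamide by PTUPB dose and has 1. Nothing says that libraries came from separate cultures, and no group has a second library. Counting intervals for ratios are 95% exact Clopper-Pearson intervals on fragments. The fit was tested on simulated data, where changes of the larger size were recovered more often than those of the smaller size and the share of false calls was above the nominal 0.05, so calls near the threshold are less certain than their adjusted p states. Alternatives were a pseudocount of 0.1, no filter on low values, TPM, no trend, limma-voom on fragments, and leaving out each library. The members and lists were chosen with earlier results of these data known. Named genes were the members past the threshold at 20 uM PTUPB or between doses, with all others by level, and the 6 largest effects of the pathway list; SREBF2 and the 4 risers were named after values were seen. Promoter sequences are from RefSeq (GRCh38.p14), matched by symbol for 23 members. Python 3.11.15, numpy 2.4.6, pandas 2.3.3, scipy 1.17.1 and matplotlib 3.10.9 were used.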

Additional observations from a re-analysis of the deposited data

Results flagged for a closer look

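ABCG1 was singled out because its 20 uM PTUPB difference had opposite signs with and without enzalutamide, by log2 0.5 or more on each side. The difference was -0.54 with enzalutamide and 1.30 without it, 1.84 apart on the scale of log2 FPKM plus 1. The gap at 20 uM itself was not tested; the interaction over doses did not pass as deposited (adjusted p 0.45) and passed after TPM (0.021).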

How the results depend on the processing

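With no filter on low values, 31321 genes entered the fit and 1 member fell at 20 uM PTUPB (2.10% of all genes), while 0 rose and 1 fell against 10 uM (1.36% and 1.41%). After TPM 6 members rose against 10 uM (21.3%) and 1 fell in the interaction test (0.849%). Also after TPM, 1 lay above the other 4 libraries at both 10 uM points (3.43%). For enzalutamide over control 0 members then passed the log2 margin, where 140 of 12960 genes were higher and 652 lower. For enzalutamide added to 20 uM PTUPB 0 members were higher and 2 lower after TPM, where 417 genes were higher and 1440 lower. A pseudocount of 0.1 put 1 member higher and 1 lower there, where 801 genes were higher and 1015 lower. With single libraries left out, 0 to 4 members fell and 0 to 1 rose (ABCG1) at 20 uM, 2 to 3 fell and 0 to 7 rose against 10 uM, and 0 moved for 10 uM PTUPB or enzalutamide. For the members past the threshold at 20 uM PTUPB or between doses, neither of these fitted effects changed sign under any alternative run. That statement does not cover genes named by level alone, such as ABCG1. The cause of the changes in counts was not tested. No blocking by replicate was possible because each group holds 1 library and the labels give no replicate numbers. The additive fit itself compares enzalutamide within each PTUPB level.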
